A study of Mus musculus with 48 samples.

Results

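Oligodendrocytes wrap the axons of the central nervous system in myelin, and they arise from precursor cells that are spread through the adult brain, the striatum included. Precursor cells carry the receptor Pdgfra and the proteoglycan Cspg4 (NG2), pass through a committed stage marked by Gpr17, and then switch on myelin genes under Myrf, while Sox10, Olig1 and Olig2 are transcription factors of the whole lineage. The set described here is a list of 33 gene symbols matched to the first column of the read-count table, which has 24060 rows, and all 33 were found. It was divided into 23 myelin and mature oligodendrocyte genes, 3 lineage transcription factors and 7 precursor genes.

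The libraries came from the striatum of adult mice that had received an astrocyte RiboTag virus, an adeno-associated virus that puts a hemagglutinin-tagged ribosomal protein, Rpl22, into striatal astrocytes, 3 weeks before RNA extraction. Each replicate had an IP library, made from RNA precipitated with the tagged ribosomes, and an input library, made from the cleared lysate. The 48 libraries (24 IP, 24 input) formed 3 experiments of 16, with 4 replicates per group in each fraction. In the first, mice given vehicle were set against mice given MPTP (20 mg/kg, 4 doses), a toxin of dopaminergic neurons that the labels describe as microinjected into the striatum. In the second, wild-type littermates were set against SAPAP3 knockout mice, a model of obsessive-compulsive behaviour. In the third, all mice carried R6/2, a mutant huntingtin transgene, and a control cargo was set against hM4Di, a designer receptor that couples to Gi, with no group lacking the transgene. The labels give the strain of all mice as C57 and do not say whether an agonist of hM4Di was given. Depth, as reads counted on genes, was 34.3 M to 61.5 M for IP and 21.9 M to 39.0 M for input. P-values here measure only the spread between the libraries of a group, and 1 wild-type sample (replicate 3) may be a pool of 2 mice, judging by how it was named. The lowest count of any of the 33 genes was 66 reads (C1ql1 in 1 hM4Di IP library).

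Although the IP libraries were enriched for astrocyte RNA, they were not free of RNA of other cells. All 10 astrocyte markers tested, Slc1a3, Aldh1l1 and Gja1 among them, were at least 2-fold higher in IP than in input in each experiment, with median log2 fold changes of 2.54 (MPTP), 2.36 (SAPAP3) and 2.54 (R6/2). All 10 microglial markers, Cx3cr1, Tmem119 and P2ry12 among them, were at least 2-fold lower, with medians of -4.99, -3.77 and -5.03. Medians were -2.69, -2.96 and -3.48 for endothelial and mural markers, and -0.985, -1.32 and -0.90 for cortical excitatory ones. Medium spiny neuron markers (-0.90, -0.64 and -0.91) were less reduced than microglial or endothelial and mural ones. Ependymal markers were at least 2-fold higher in IP for 6 of 8 genes in each experiment (medians 1.33, 2.17 and 1.73). In input, summed cortical excitatory markers (8 genes, such as Slc17a7) were 804 to 932 CPM (counts scaled to library size, with TMM factors) in 3 wild-type and 901 to 1033 CPM in the SAPAP3 knockout mice, against 121 to 206 CPM in the other 2 experiments. Input of wild-type replicate 1 stood apart from its group at 198 CPM, and its medium spiny neuron markers summed to 9558 CPM, against 5341 to 6366 CPM in the other 3. Without that replicate 17 members were called between IP and input of the SAPAP3 experiment, as with it, and the knockout comparisons again had 0. For IP over input of control groups, the counts without it were 15 (wild type minus vehicle, 16 with it) and 32 (R6/2 control cargo minus wild type, as with it). In bulk RNA, fewer cells of a type and less RNA per cell cannot be told apart.

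Per unit of transcript length, myelin genes held the upper 18 places among the members, although Myrf and Fa2h were far lower. In vehicle input the mean FPKM was 372 ± 28.8 (SD, n = 4) for Trf, the iron carrier transferrin, 333 ± 11.7 for Mbp, which compacts the myelin membrane, 237 ± 18.7 for Mal, a proteolipid of membrane rafts, and 197 ± 6.87 for Cnp, an enzyme of noncompact myelin. Cldn11, the tight-junction claudin of myelin, and Car2, a carbonic anhydrase that astrocytes can also express, stood at 144 ± 4.92 and 143 ± 7.15, closer than their spread. At the low end, Pdgfra was at 12 ± 0.212, Vcan (versican) at 3.60 ± 0.289, Cspg4 at 2.92 ± 0.291 and Neu4 (a sialidase) at 2.39 ± 0.105. Trf shares 63.5% of its exonic bases with an overlapping gene on the same strand, Gm20425, so its count is uncertain. In the other members, overlap with another gene reached 17.6% of exonic bases at most, on the opposite strand.

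Of the 33 genes, 22 matched RefSeq promoter windows (29 windows, GRCm38.p6), and the 250 bases before each start were searched on both strands for ACAAAG (the core site of Sox factors), CTGGCAC (a Myrf site) and CAGCTG (an E-box that Olig2, among others, can bind). Among 16 myelin genes with a window, 6 held ACAAAG (Cnp, Lpar1, Mag, Mobp, Opalin and Tspan2) and 3 held CTGGCAC (Cnp, Lpar1 and Mag). CAGCTG was held by 2 of the 16 (Aspa and Gsn). Of the 5 precursor genes, with 1 window each, none held ACAAAG or CTGGCAC, and 1 (Lhfpl3) held CAGCTG. Counted by window, 8 of the 23 myelin windows held ACAAAG, 4 held CTGGCAC and 3 held CAGCTG, with some genes giving several windows. The Mag windows chr7:30914864-30915113 and chr7:30914923-30915172 overlap and hold the same ACAAAG and CTGGCAC sites, which are thus counted in both. In all 32851 windows of the table, the shares were 16.5% for ACAAAG, 4.19% for CTGGCAC and 13.0% for CAGCTG. A match is a description of letters, not of binding. Windows are shown for Mobp (6 copies of ACAAAG), Cnp and Mag (each with ACAAAG and CTGGCAC), and for Pdgfra, a precursor gene with no match. Mobp, Cnp and Mag rose with hM4Di in IP (below), as did 22 of 23 myelin genes, but differed from each other in IP against input. The windows shown lie at chr9:120149492-120149741 (plus strand), chr11:100574689-100574938 (plus), chr7:30914864-30915113 (minus) and chr5:75152001-75152250 (plus). Capitals mark the motifs, on either strand.
Mobp: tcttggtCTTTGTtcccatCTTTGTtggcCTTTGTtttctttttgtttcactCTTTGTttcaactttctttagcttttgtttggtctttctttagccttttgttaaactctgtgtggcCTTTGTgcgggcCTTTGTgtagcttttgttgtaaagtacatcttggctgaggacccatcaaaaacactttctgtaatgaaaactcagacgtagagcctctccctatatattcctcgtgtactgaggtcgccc
Cnp: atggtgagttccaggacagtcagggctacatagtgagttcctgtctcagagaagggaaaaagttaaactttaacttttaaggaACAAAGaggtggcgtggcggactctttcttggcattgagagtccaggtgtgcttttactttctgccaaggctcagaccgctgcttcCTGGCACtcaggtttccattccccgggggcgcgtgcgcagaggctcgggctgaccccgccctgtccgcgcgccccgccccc
Mag: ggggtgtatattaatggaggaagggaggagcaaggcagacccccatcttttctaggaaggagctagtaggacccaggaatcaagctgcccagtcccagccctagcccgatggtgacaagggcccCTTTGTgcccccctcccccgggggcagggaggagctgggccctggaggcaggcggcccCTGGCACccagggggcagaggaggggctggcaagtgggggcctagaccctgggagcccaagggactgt
Pdgfra: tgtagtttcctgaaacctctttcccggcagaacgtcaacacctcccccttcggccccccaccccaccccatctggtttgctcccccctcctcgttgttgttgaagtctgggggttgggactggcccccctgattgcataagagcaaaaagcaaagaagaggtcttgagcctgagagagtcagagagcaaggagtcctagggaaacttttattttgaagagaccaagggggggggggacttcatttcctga

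How far each member followed the tagged ribosomes was read from IP against input over the 16 libraries of an experiment. Both conditions entered, with condition as an additive term, so each value is an average over the 2 conditions. Here a gene was called when its adjusted p (edgeR's quasi-likelihood test, Benjamini-Hochberg) was under 0.05 and its fold at least 2. In the MPTP experiment 2 of 33 members were higher in IP and 0 lower (29 had an unadjusted p under 0.05, with DESeq2 calling the same numbers), against 12.5% of all 15862 genes higher and 14.0% lower. In the SAPAP3 experiment 17 were higher and 0 lower, against 11.9% and 13.0% of 16059 genes. In the R6/2 experiment 1 was higher and 7 were lower, against 11.3% and 12.3% of 15880 genes. These R6/2 values average groups that differed, since summed myelin CPM in IP over input was 0.806 with control cargo and 1.37 with hM4Di. The median log2 fold change of the 23 myelin genes was 0.47, 1.01 and 0.21 in the 3 experiments, and that of the 7 precursor genes was -0.06, 0.54 and -1.18, beside medians of all genes within 0.03 of 0. The SAPAP3 count fell to 10 with upper-quartile scaling and to 6 on log2(FPKM + 1), and the R6/2 split became 0 higher and 5 lower on log2(FPKM + 1).

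**Figure D1:**
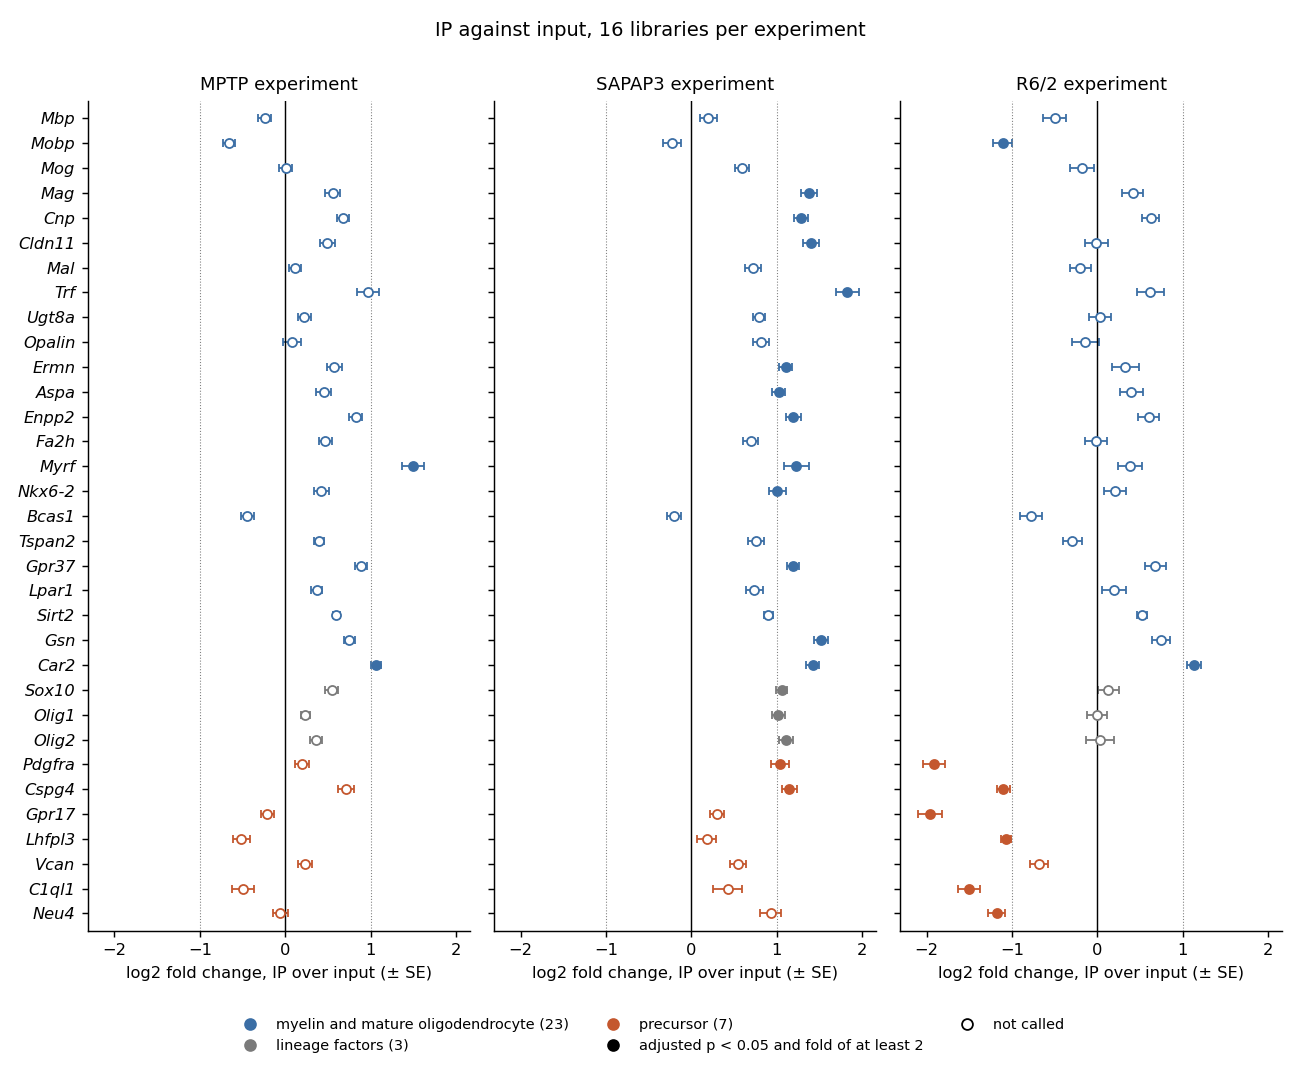
Log2 fold change of IP over input (x axis, ± SE) for each of the 33 genes in the MPTP, SAPAP3 and R6/2 experiments. Filled points were called, and dotted lines mark a 2-fold difference. The 7 precursor genes, at the bottom, sit below 0 in the R6/2 experiment (-1.96 to -0.69) and above 0 in the SAPAP3 experiment (0.18 to 1.15).

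Within the myelin genes the order was much alike in the 3 experiments, with Mobp and Bcas1 at the low end and Car2 near the high end. Mobp, a basic protein of compact myelin, was at -0.66 ± 0.07 (log2 fold change ± SE) in the MPTP, -0.23 ± 0.11 in the SAPAP3 and -1.11 ± 0.11 in the R6/2 experiment. Bcas1, which marks newly myelinating oligodendrocytes, was at -0.45 ± 0.07, -0.20 ± 0.08 and -0.78 ± 0.13. Mbp was at -0.24 ± 0.07, 0.20 ± 0.10 and -0.50 ± 0.13, the lowest value after Mobp and Bcas1 in each experiment. Car2 was called higher in each experiment (1.06 ± 0.06, 1.42 ± 0.07 and 1.13 ± 0.08).

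In the MPTP experiment the other call was Myrf, the transcription factor that drives myelin genes, at 1.5 ± 0.13. Its CPM in vehicle replicates 1 to 4 was 23.0, 20.6, 24.3 and 27.4 in input, and 55.2, 65.3, 49.5 and 70.9 in IP. With MPTP it was 26.5, 24.9, 20.6 and 18.0 in input and 104, 67.7, 56.3 and 61.3 in IP. Every IP library was above every input library of its experiment. Trf followed at 0.97 ± 0.13, from 736 to 1099 CPM over the 8 inputs to 1333 to 2750 CPM over the 8 IP libraries.

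In the SAPAP3 experiment the 12 myelin genes called ranged from Nkx6-2 (1.01 ± 0.10), a homeodomain factor, to Trf (1.83 ± 0.14). Gsn, which encodes the actin-severing protein gelsolin, was at 1.51 ± 0.08, Cldn11 at 1.40 ± 0.10, and Mag, a glycoprotein of the myelin membrane next to the axon, at 1.38 ± 0.10. Trf CPM in wild-type replicates 1 to 4 was 1038, 1025, 755 and 850 in input and 3025, 3814, 1809 and 3561 in IP. In the knockout it was 879, 791, 707 and 865 in input and 2787, 3516, 2265 and 3062 in IP. Both genotypes therefore showed the difference, with no overlap of IP and input. All 3 lineage factors were called (Olig2 1.11 ± 0.08, Sox10 1.06 ± 0.06, Olig1 1.02 ± 0.07), as were the precursor genes Cspg4 (1.15 ± 0.09) and Pdgfra (1.04 ± 0.11).

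In the R6/2 experiment 6 of 7 precursor genes were at least 2-fold lower in IP. In the MPTP experiment 3 of these were lower at the adjusted p but by less than 2-fold, namely Lhfpl3 (-0.52 ± 0.10), C1ql1 (-0.49 ± 0.13) and Gpr17 (-0.21 ± 0.08). Another 3 of the 7 precursor genes were higher at that bar. Among all 15862 genes, 6810 were lower and 6460 higher at it. In R6/2, Gpr17, a receptor of committed precursors, was at -1.96 ± 0.14, Pdgfra at -1.92 ± 0.12, C1ql1, a secreted C1q-like protein, at -1.50 ± 0.13, Neu4 at -1.18 ± 0.10, Cspg4 at -1.10 ± 0.08 and Lhfpl3, a tetraspan membrane protein, at -1.07 ± 0.06. Vcan, at -0.69 ± 0.10, passed the adjusted p (1.19e-05) but not the fold. Pdgfra CPM in the control-cargo mice was 76.1, 74.7, 79.0 and 79.3 in input and 28.4, 17.4, 25.3 and 29.7 in IP. In hM4Di mice it was 74.7, 79.3, 82.3 and 69.2 in input and 13.5, 14.8, 18.8 and 16.2 in IP. Gpr17 went from 51.5 to 74.2 CPM over the 8 inputs to 10.7 to 24.6 CPM over the 8 IP libraries. For both genes no IP library reached the lowest input.

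Of 12 further precursor genes, 3, 4 and 2 were called higher in IP in the MPTP, SAPAP3 and R6/2 experiments, and 0, 0 and 1 lower. Among all genes, 12.5%, 11.9% and 11.3% were called higher and 14.0%, 13.0% and 12.3% lower. The median log2 fold changes of the 12 genes were 0.52, 0.67 and -0.23. At the adjusted p without the fold, 6 were lower and 5 higher in the R6/2 experiment, beside 6519 and 6240 of all 15880 genes. Ptprz1, a receptor phosphatase that astrocytes express too, was at 2.58 ± 0.10, 2.06 ± 0.08 and 1.65 ± 0.03, and the transcription factor Sox6 at 1.80 ± 0.06, 1.41 ± 0.05 and 1.19 ± 0.03. The 1 gene called lower in the R6/2 experiment was Pcdh15, a protocadherin, at -1.07 ± 0.06. Of 25 further myelin genes, 2, 1 and 0 were called higher and none lower, with medians of 0.04, 0.71 and -0.04.

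The ratio of summed CPM in IP to that in input shows the 6 conditions side by side. For the 23 myelin genes it was 1.21 ± 0.224 (SD, n = 4) with vehicle, 1.40 ± 0.147 with MPTP, 1.88 ± 0.446 in wild type, 1.88 ± 0.268 in SAPAP3 knockout, 0.806 ± 0.0525 in R6/2 with control cargo and 1.37 ± 0.083 in R6/2 with hM4Di. Control-cargo mice (0.818, 0.845, 0.832 and 0.729) lay below the lowest ratio of any other condition (1.03). Such sums weigh highly expressed genes most. With control cargo, Mbp alone held a mean of 1838 of 5091 CPM in input and 951.6 of 4116 CPM in IP. Single genes did not all follow the sum. Car2 was at 128.7 CPM in input and 253.2 CPM in IP with control cargo, and Mobp at 336.2 and 195.7 CPM with vehicle. For the 7 precursor genes the ratio of sums was 1.17 ± 0.0556, 0.918 ± 0.114, 1.51 ± 0.237, 1.68 ± 0.249, 0.434 ± 0.0593 and 0.361 ± 0.0323. Both R6/2 groups were low here, from 0.326 to 0.488, against a lowest ratio of 0.794 in the other 4 conditions.

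**Figure D2:**
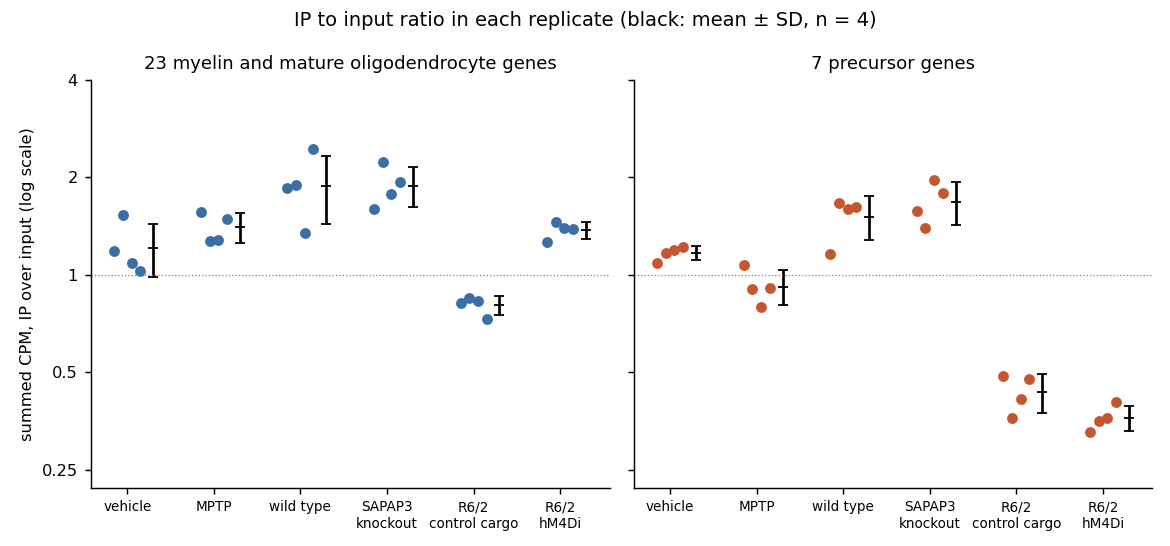
Summed CPM in IP divided by that in input (log axis) for each replicate of the 6 conditions, with mean ± SD (n = 4) in black. The summed myelin ratio is below 1 only in R6/2 mice with control cargo (0.729 to 0.845), though single myelin genes lie on either side. The summed precursor ratio is low in both R6/2 groups.

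Those differences between control groups were tested as an interaction over the 24 libraries of the 3 control groups, with calls at an adjusted p under 0.05. IP over input was lower in R6/2 control-cargo than in vehicle mice for 27 of 33 members (12.5% of 16318 genes were lower), including 7 of 7 precursor genes (median difference -1.34) and 18 of 23 myelin genes (median -0.67). Against wild type it was lower for 32 members (6.62% of all genes), again 7 precursor (median -1.80) and 22 myelin genes (median -1.13), with Car2 the member not called. Of 12 further precursor genes, 9 were lower against vehicle and 4 against wild type (medians -0.76 and -0.37). For 25 further myelin genes these counts were 9 and 20 (medians -0.46 and -1.10). For 8 further genes of the committed stage they were 4 and 3 (medians -0.48 and -0.20). Pdgfra differed by -2.08 ± 0.20 and -2.53 ± 0.20 (log2, ± SE), Cspg4 by -1.94 ± 0.16 and -1.97 ± 0.16, and Mbp by -0.58 ± 0.17 and -1.13 ± 0.18. Wild type exceeded vehicle for 16 members (3.38% of all genes), a count that fell to 8, 6 or 4 without vehicle replicate 1, 3 or 4 and to 10 or 4 without wild-type replicate 2 or 4. Both comparisons with R6/2 share its 8 libraries. Genotype and experiment differ together here and cannot be told apart.

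In input, where the whole lysate was measured, no precursor gene was called lower in R6/2 control-cargo mice. The input level of Pdgfra differed by 0.02 ± 0.14 between R6/2 control-cargo and vehicle mice, and 0 of 7 were called lower against vehicle or wild type. Called higher were 2 of 7 against vehicle and 3 of 7 against wild type (medians 0.14 and 0.17). Among all 16318 genes, 4998 and 4287 were called higher. Myelin genes were lower in input for 11 members and higher for 1 against vehicle, with Mal at -1.39 ± 0.11, Mobp at -0.93 ± 0.12, Cldn11 at -0.91 ± 0.12 and Car2, at -0.90 ± 0.10, the 4 lowest. The 1 higher was Myrf, at 0.98 ± 0.14, which in wild type exceeded vehicle by 1.26 ± 0.14. Over all 33 members, 15 were called against vehicle and 16 against wild type, and 12 differed between wild type and vehicle (16 and 11 for the last 2 without wild-type replicate 1). Across experiments such calls were common, at 58.2%, 53.2% and 43.1% of all genes in either direction, and the shares of the 33 members were below these. In the lower direction the myelin share was larger than that of all genes. Against vehicle 11 of 23 myelin genes were lower, beside 4498 of 16318 genes, and against wild type 10 of 23, beside 4389.

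Expression of hM4Di in R6/2 mice went with higher myelin genes in IP and not in input. In IP libraries 22 of 23 myelin genes rose, by 0.29 to 1.08 on the log2 scale (median 0.815), against 9.06% of all 15159 genes that were higher and 5.63% that were lower. In 22 of 23 every hM4Di library was above every control-cargo library, which held for 11.2% of all genes. Of 25 further myelin genes, 22 rose as well (median 0.785), and Plekhb1 was among them at 0.36 ± 0.07. Splits of all calls moved with the scaling (1374 higher and 853 lower with TMM, 1221 and 1190 with upper-quartile scaling, 1545 and 516 on log2(FPKM + 1)), while members called stayed at 23 to 26 under 10 alternatives and 21 to 27 with a replicate left out.

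Genes of the myelin membrane showed the difference in each library. Mbp CPM in IP was 991, 1074, 966 and 775 with control cargo and 1545, 2230, 1544 and 1741 with hM4Di, a log2 fold change of 0.91 ± 0.14 (adjusted p = 0.00623). Mobp was 60.8, 67.6, 56.4 and 59.5 against 98.6, 127, 100 and 97.4 (0.81 ± 0.10). Mog, a protein of the outer sheath, was 58.6, 62.4, 55.8 and 46.6 against 86.0, 121, 99.2 and 105 (0.90 ± 0.12). In none of these 3 genes did the groups overlap. Mag was 279, 300, 240 and 197 against 362, 488, 431 and 430 (0.77 ± 0.14). Cldn11 was 94.6, 111, 94.0 and 88.1 against 145, 213, 180 and 154 (0.86 ± 0.13). Mal was 148, 179, 143 and 140 against 235, 319, 256 and 239 (0.81 ± 0.12). Replicate 2 of the hM4Di group was the highest of the 4 hM4Di libraries for each of these 6 genes.

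Enzymes and carriers that supply myelin moved in the same direction. Trf rose most among the members, from 532, 676, 585 and 411 CPM to 956, 1185, 1335 and 1122 (1.08 ± 0.15, adjusted p = 0.00499). Cnp was 560, 600, 554 and 473 with control cargo and 758, 985, 793 and 826 with hM4Di (0.64 ± 0.10). Ugt8a, which makes the galactolipids of myelin, was 85.6, 95.4, 81.5 and 61.9 against 118, 152, 123 and 151 (0.76 ± 0.14). A similar picture held for the other lipid and metabolite enzymes. Fa2h, which hydroxylates fatty acids of those lipids, was 15.8, 15.4, 13.5 and 12.5 against 21.8, 30.7, 22.9 and 27.0 (0.86 ± 0.12). Aspa, which splits N-acetylaspartate, was 21.1, 23.2, 22.9 and 16.7 against 33.5, 43.6, 37.0 and 33.8 (0.84 ± 0.12). Enpp2 (autotaxin), which makes lysophosphatidic acid, was 330, 376, 327 and 250 against 426, 564, 463 and 526 (0.65 ± 0.13). Lpar1, a receptor for that lipid, had the smallest adjusted p of the 33 (0.00309). It was 50.5, 59.7, 49.2 and 38.7 CPM with control cargo and 98.9, 112, 96.3 and 93.7 CPM with hM4Di (1.04 ± 0.12).

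The remaining myelin genes, described next, rose as well except Car2. Opalin, a transmembrane protein of oligodendrocytes, was 18.6, 17.7, 16.3 and 14.8 CPM against 26.2, 42.5, 31.3 and 27.6 (0.94 ± 0.15). Ermn, a cytoskeletal protein, was 113, 127, 96.0 and 68.7 against 148, 204, 182 and 189 (0.86 ± 0.18). Tspan2, a tetraspanin, was 75.6, 85.5, 83.2 and 77.8 against 116, 162, 121 and 112 (0.68 ± 0.12). The orphan receptor Gpr37 behaved much like them. It was 143, 163, 139 and 110 against 192, 269, 222 and 202 (0.70 ± 0.14). Bcas1 was 68.6, 69.6, 61.1 and 43.7 against 93.1, 123, 90.7 and 98.3 (0.76 ± 0.15). Sirt2, a deacetylase found in myelin and in other cells, changed least among those called, from 130, 126, 139 and 120 to 148, 167, 148 and 158 (0.29 ± 0.06). Gsn was 117, 140, 117 and 113 against 152, 199, 200 and 148 (0.54 ± 0.12). Car2 did not pass the test, at 255, 233, 298 and 227 against 271, 342, 273 and 269 CPM (0.21 ± 0.10, adjusted p = 0.199), and its groups overlapped.

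Among transcription factors, Myrf, Nkx6-2, Sox10 and Olig1 rose and Olig2 did not pass the test. Myrf was 48.6, 49.1, 41.0 and 36.7 CPM in IP with control cargo and 55.2, 89.7, 84.8 and 75.5 with hM4Di (0.82 ± 0.16). Nkx6-2 was 12.6, 16.9, 14.3 and 12.2 against 23.6, 30.3, 25.6 and 22.4 (0.88 ± 0.13). Sox10 was 35.9, 25.5, 34.9 and 31.0 against 43.6, 49.0, 40.8 and 40.6 (0.47 ± 0.11, adjusted p = 0.023), and it was not called with the replicate number as a block or without control replicate 4 or hM4Di replicate 2. Olig1 was the other lineage factor that passed. Its CPM was 77.7, 94.3, 70.1 and 57.9 against 103, 133, 105 and 112 (0.61 ± 0.14, adjusted p = 0.025), with no call without control replicate 1 or 3 or hM4Di replicate 2. Olig2 was 18.6, 28.6, 14.2 and 13.9 against 21.4, 28.4, 29.6 and 23.8 (0.48 ± 0.23, adjusted p = 0.192), where control replicate 2 overlapped the hM4Di range, and without it the gene was called (0.75). Gsn lost its call without control replicate 1, 3 or 4 or hM4Di replicate 2 or 3.

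None of the 7 precursor genes rose. Pdgfra fell in IP, by 0.65 ± 0.17 on the log2 scale (adjusted p = 0.0364), from 28.4, 17.4, 25.3 and 29.7 to 13.5, 14.8, 18.8 and 16.2 CPM, and control replicate 2 lay inside the hM4Di range. Its call was lost with the replicate number as a block, on both FPKM scales and without any 1 of 6 of the 8 replicates, while the change stayed between -0.80 and -0.45. Gpr17 was 24.6, 13.8, 20.5 and 18.4 against 11.8, 13.5, 10.7 and 16.6 CPM (-0.54 ± 0.18, adjusted p = 0.0776). The other 5 ranged from -0.32 ± 0.14 (Neu4) to 0.12 ± 0.17 (Vcan) and were not called. Of the 12 further precursor genes, 3 fell and 0 rose (median -0.16, with 8 below 0 and 4 above), Ptprz1 among the former (-0.19 ± 0.05). Among all genes tested there, 5.63% were lower and 9.06% higher.

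**Figure D3:**
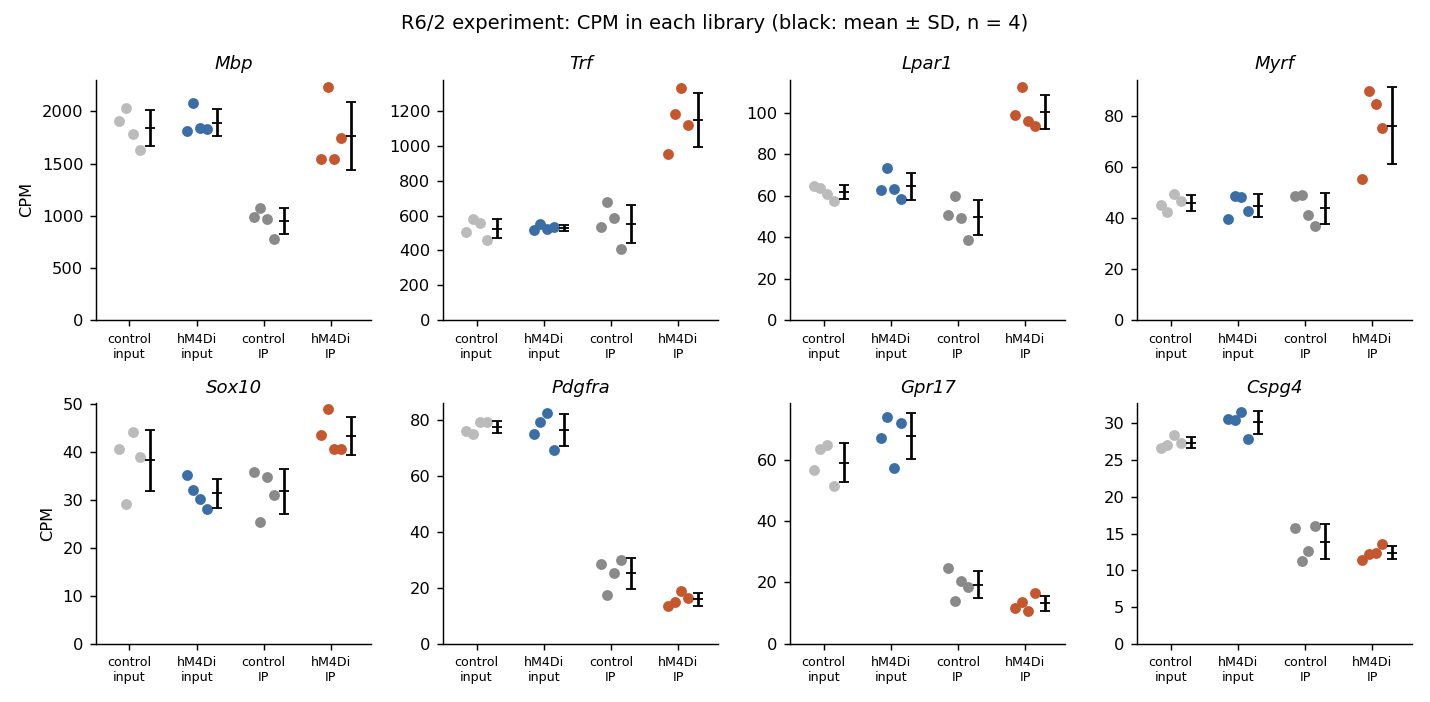
CPM (y axis, from 0) in each library of the R6/2 experiment for 5 genes of the oligodendrocyte lineage and 3 precursor genes, with mean ± SD (n = 4) in black. For Mbp, Trf, Lpar1, Myrf and Sox10 the 4 hM4Di IP libraries lie above the 4 control-cargo IP libraries, whereas Pdgfra, Gpr17 and Cspg4 are low in all 8 IP libraries.

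In input the same contrast gave 0 of 33 members called by edgeR (3 at an unadjusted p under 0.05, 0 by DESeq2 or limma-voom), against 0.0198% of 15168 genes. The myelin median was -0.03 and the range -0.11 to 0.07, so that Mbp, for example, was at 1907, 2034, 1782 and 1630 CPM with control cargo and at 1815, 2084, 1837 and 1832 CPM with hM4Di. Whether the IP difference exceeded the input difference was tested as an interaction, which did not use the pairing of IP and input by animal. It was larger in IP for 21 of 33 members, 20 of them myelin genes (median 0.82) and 1 Sox10 (0.74 ± 0.17), and smaller for 0, against 1.9% and 1.2% of 15880 genes. Mog (1.00 ± 0.15), Aspa (0.94 ± 0.14) and Lpar1 (0.96 ± 0.15) had adjusted p = 0.0054, the smallest of the 33 by edgeR's test. Without control replicate 1 or 3 or hM4Di replicate 4 the count fell to 7, 11 or 12. With the animal as a block it was 26 higher and 3 lower, the latter being Pdgfra (-0.64), Gpr17 (-0.74) and Neu4 (-0.47). The shares of 1.9% and 1.2% belong to the test without that block, and those with it are not given here.

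**Figure D4:**
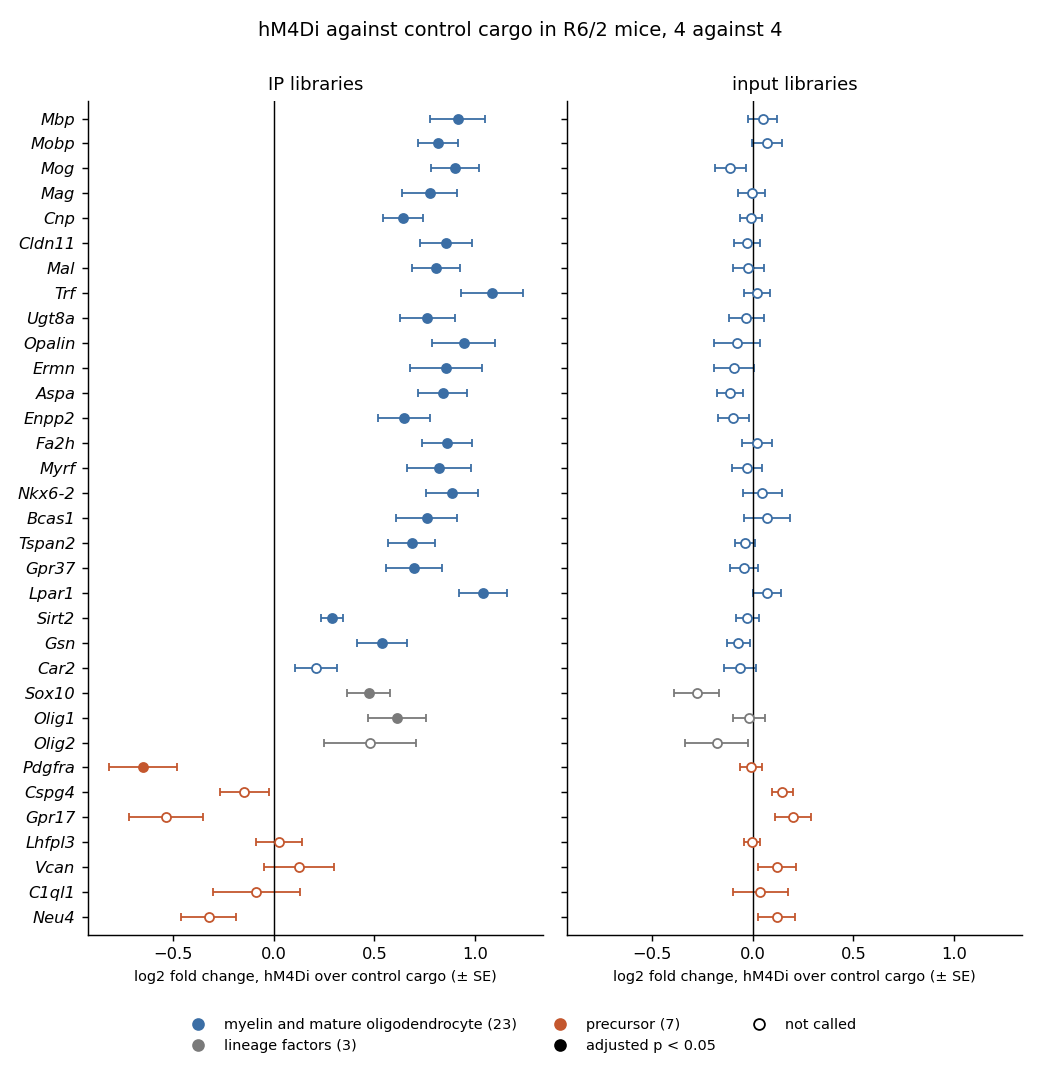
Log2 fold change of hM4Di over control cargo (x axis, ± SE) in IP and in input libraries for the 33 genes, with filled points for an adjusted p under 0.05. In IP 24 members were called higher and 1 lower, and in input none was called.

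Markers of other cells also differed between the hM4Di and control-cargo IP libraries, where 9.06% of all genes were called higher and 5.63% lower. Medium spiny neuron markers summed to 1795 to 2766 CPM with control cargo and to 1511 to 1594 CPM with hM4Di, and 6 of 9 fell (median -0.51), Ppp1r1b among them from 310 ± 87.4 to 199 ± 7.98 CPM. Astrocyte markers summed to 21960 to 24820 CPM and 17350 to 18930 CPM, with 2 of 10 lower and 0 higher, although Aldh1l1 itself stood at 325 ± 42.5 and 389 ± 21.0 CPM. No marker of these lists was at 0. Microglial markers summed to 52.7 to 58.5 and 56.7 to 63.9 CPM, with none of 10 called (10 above 0, median 0.29). Cortical markers were below 0 for 7 of 8 genes (median -0.42, none called), 1 of 10 endothelial and mural markers was lower (median 0.17) and 1 of 8 ependymal markers higher (0.23). The part of these shifts in the myelin result was not tested.

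MPTP brought no call among the members, but the precursor genes leaned one way in IP. By edgeR 0 of 33 were called in IP (8 at an unadjusted p under 0.05) and 0.0% of 15069 genes, while DESeq2 called 4 of the members, Pdgfra (-0.54), Cspg4 (-0.47), C1ql1 (-0.51) and Neu4 (-0.34), all lower, where it called 1.68% of all genes lower. The 7 precursor genes had a median log2 fold change of -0.34 and all 7 were below 0, where the median of all genes was 0.01. In 4 of 7 every MPTP library was below every vehicle library, which held for 5.51% of all genes. Pdgfra in IP was 100, 102, 111 and 110 CPM with vehicle and 87.2, 73.6, 61.8 and 65.5 with MPTP (-0.54 ± 0.10, adjusted p = 0.103). Cspg4 was 39.9, 42.5, 43.5 and 47.1 against 38.8, 30.6, 25.6 and 28.3 (-0.48 ± 0.12, adjusted p = 0.184). C1ql1 and Neu4 had the same order of groups. C1ql1 was 4.22, 4.87, 5.36 and 4.98 against 3.96, 3.08, 3.46 and 2.92 (-0.52 ± 0.13, adjusted p = 0.184). Neu4 was 12.4, 12.8, 11.4 and 11.9 against 10.8, 9.30, 8.85 and 9.12 (-0.34 ± 0.08, adjusted p = 0.172). MPTP replicate 1 was the nearest to vehicle for these 4 genes, and without it edgeR called Pdgfra (-0.65) and Cspg4 (-0.61), among 0.0791% of 15166 genes that were lower. That replicate was singled out by these same values, so larger differences without it follow from the choice. Leaving out each of the 8 replicates in turn gave 0 to 2 members called.

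**Figure D5:**
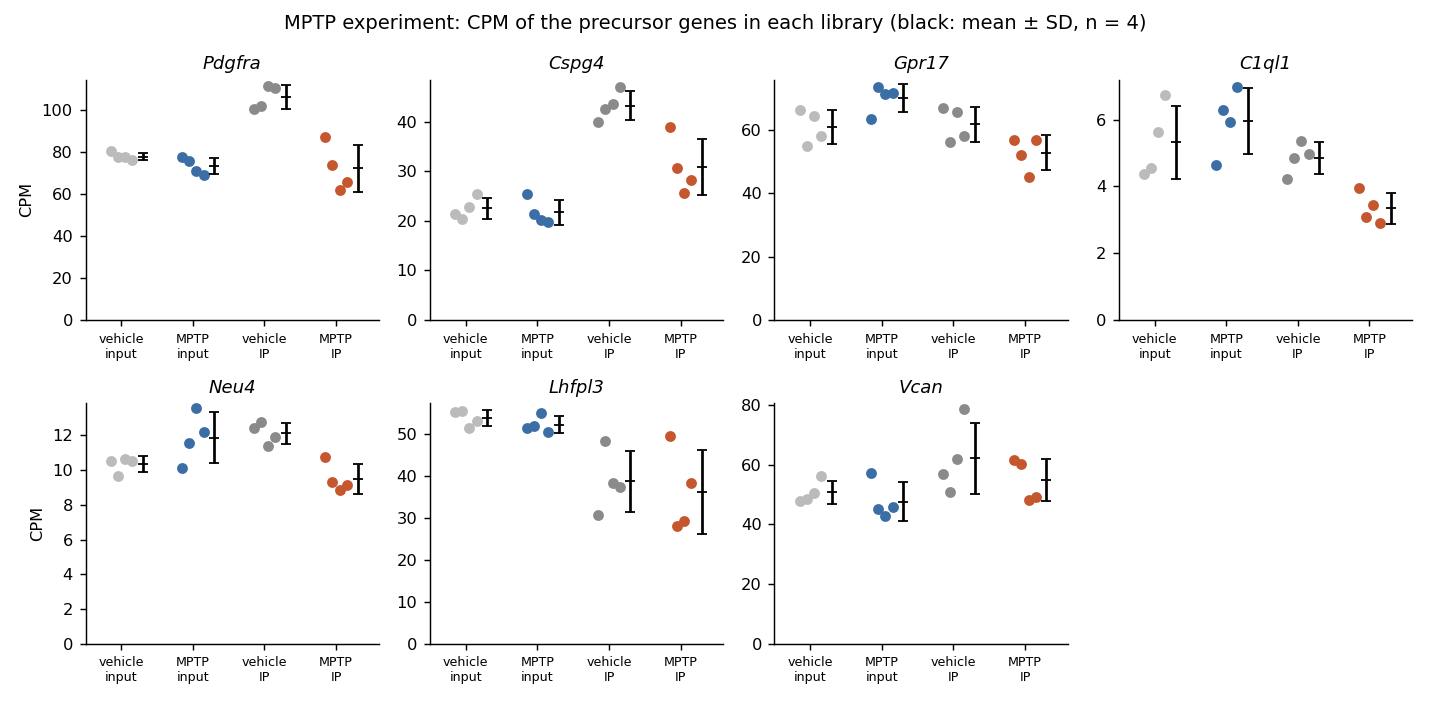
CPM (y axis, from 0) of the 7 precursor genes in each library of the MPTP experiment, with mean ± SD (n = 4) in black. In IP the 4 MPTP libraries lie below the 4 vehicle libraries for Pdgfra, Cspg4, C1ql1 and Neu4, with no such separation in input.

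The myelin genes did not follow. In IP 21 of 23 had a log2 fold change above 0, with a median of 0.18 and a range of -0.18 to 0.33, no call and overlapping groups throughout. Mbp, for instance, was 1673, 2031, 1523 and 1358 CPM with vehicle and 1829, 1712, 1972 and 2111 CPM with MPTP (0.22 ± 0.11). In MPTP input 0 of 33 were called by edgeR (5 at an unadjusted p under 0.05, 0 by DESeq2 or limma-voom), again with 0.0% of 15601 genes. Pdgfra there was 80.2, 77.3, 77.3 and 76.0 against 77.3, 75.5, 70.9 and 69.1 CPM. The interaction gave 0 of 33 (9 at an unadjusted p under 0.05) and 0.0% of 15862 genes by edgeR, and DESeq2 called Pdgfra (-0.48), among 0.277% of genes that were lower. In MPTP IP libraries all 10 astrocyte markers were below 0 (median -0.22, none called), with sums of 26110 to 34710 CPM with vehicle and 25290 to 28110 CPM with MPTP, while 9 of 10 microglial (median 0.32), 7 of 7 ependymal (0.39), 9 of 9 medium spiny neuron (0.10) and 6 of 8 cortical (0.21) markers were above 0 and 4 of 10 endothelial and mural ones (-0.13), none called. The part of these lists in the members' values was not tested. Titles of MPTP replicate 2 name different animals for IP and input.

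Loss of SAPAP3 left the members without a call in either fraction. In IP edgeR called 0 of 33 (1 at an unadjusted p under 0.05, 0 by DESeq2 or limma-voom), against 0.0263% of 15198 genes. The myelin median was -0.03 (range -0.27 to 0.18) and the precursor median 0.19. Sox10 was 103, 99.6, 88.6 and 127 CPM in wild-type IP and 88.8, 99.1, 92.8 and 90.0 in knockout IP (-0.17 ± 0.10), and Olig2 was 38.7, 44.2, 42.3 and 57.4 against 48.7, 49.4, 51.3 and 60.5 (0.21 ± 0.12). In both genes the groups overlapped. Pdgfra was 86.3, 127, 159 and 139 against 141, 120, 183 and 165 (0.26 ± 0.18), with wild-type replicate 1 the lowest. In input edgeR called 0 of 33 (3 at an unadjusted p under 0.05, 0 by DESeq2 or limma-voom), against 0.00641% of 15591 genes. The largest input difference was that of Opalin, at -0.26 ± 0.08, with 31.1, 35.9, 37.4 and 31.4 CPM in wild type and 29.5, 30.2, 26.6 and 27.4 in knockout. For Opalin and Sox10 every knockout input was below every wild-type input, which held for 1.71% of all genes. The interaction gave 0 of 33 by edgeR (0 at an unadjusted p under 0.05, 0 by DESeq2 or limma-voom) and 0.0% of 16059 genes. Standard errors of the myelin genes in IP were 0.08 to 0.22 on the log2 scale. Medium spiny neuron markers were below 0 for 9 of 9 genes in knockout IP (median -0.30, none called). Above 0 were 10 of 10 microglial (median 0.55), 7 of 8 cortical (0.64), 10 of 10 astrocyte (0.12), 6 of 8 ependymal (0.16) and 6 of 10 endothelial and mural markers (0.03), none called. Their part in these values was not tested.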

How the data were processed

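RNA of 48 libraries (TruSeq Stranded libraries after RiboZero Gold depletion, HiSeq4000, per the labels' protocols) was measured as read counts per gene. The authors deposited raw read counts and FPKM values. STAR, HTSeq and mm10 are named in the submitters' processing notes, with versions, annotation and strand setting not given in the sources used here. The deposited FPKM equalled count divided by length and library total within 1% for 100% of 13035 genes checked.

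From the counts, CPM after TMM scaling over all libraries was computed for levels across libraries, and FPKM served for levels between genes. Differences were tested with edgeR 4.0.16 (quasi-likelihood F test, filterByExpr with a minimum count of 10, TMM, Benjamini-Hochberg over all genes tested, adjusted p under 0.05) in R 4.3.3, and the SE is the log2 fold change divided by the root of F. IP against input also required a fold of at least 2. Each comparison of conditions used the 8 libraries of its fraction, interactions the 16 of an experiment, and control groups 24. Scripts were tested on simulated data. Alternatives were RLE and upper-quartile scaling, DESeq2 1.42.0, limma 3.58.1 (voom, and trend on log2(FPKM + 1) and log2(FPKM + 0.1)), other filters and thresholds, a replicate or animal block, and each replicate left out. IP and input libraries of 1 number come from the same animal by their titles, except MPTP replicate 2. The main tests did not use this pairing, while the animal block did. Between IP and input of 1 number, the lowest correlation of deviations from the group means was 0.153 (MPTP), 0.378 (SAPAP3) and 0.486 (R6/2). In 72 pairs of replicates, chi-square per degree of freedom was 3.99 to 91.4, so none agreed within sampling noise.

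The 33 members and all other gene lists were chosen with earlier results of these data known. Named genes were all members, up to 4 genes with the smallest p of each further lineage list in each IP against input comparison, and the first 3 of each other cell type list. Per-library values were given for members called or with the largest changes, and for Mbp, Pdgfra, Olig2 and Sox10. 1 gene of these lists is not reported here by name.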

Additional observations from a re-analysis of the deposited data

Results flagged for a closer look

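In 15 of 396 sets of 4 values (1 gene in 1 group), 1 library stood apart by Dixon's test at its 95% critical value, where chance gives about 1 in 20. The sets are not independent, since all genes share the same libraries. In hM4Di replicate 2 the input was highest for Mbp (2084 CPM, the others 1815 to 1837), Cldn11 (147.9 against 124.8 to 128.5) and Tspan2 (133.2 against 120.8 to 122.5), and its IP for Mobp (127.3 against 97.41 to 100.3) and Car2 (342.1 against 269.2 to 273.0). In vehicle replicate 2 the IP was highest for Trf (2052 against 1333 to 1397) and Sox10 (83.75 against 59.36 to 62.12), and the input lowest for Mobp (315.1 against 342.1 to 344.6) and Neu4 (9.638 against 10.53 to 10.66). Knockout replicate 2 had the highest IP value for Mobp (314.2 against 193.6 to 204.3) and Opalin (63.91 against 41.52 to 45.23). The remaining 4 were Gpr37 in input of vehicle replicate 3 (119.1, lowest), Sirt2 in input of wild-type replicate 3 (94.94, highest), and Gsn in control-cargo R6/2 mice, lowest in input of replicate 1 (82.36) and highest in IP of replicate 2 (140.4).

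The hM4Di difference was larger in IP than in input for 21 members by the interaction test. The log2 differences were 0.855 for Mbp, 0.734 for Mobp, 1.0 for Mog, 0.769 for Mag, 0.64 for Cnp, 0.875 for Cldn11, 0.817 for Mal and 1.05 for Trf. They were 0.785 for Ugt8a, 1.01 for Opalin, 0.941 for both Ermn and Aspa, 0.733 for Enpp2, 0.831 for Fa2h and 0.84 for Myrf. For the last 6 they were 0.827 (Nkx6-2), 0.714 (Tspan2), 0.731 (Gpr37), 0.958 (Lpar1), 0.6 (Gsn) and 0.74 (Sox10).

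IP over input differed between control groups for 27 members (R6/2 control cargo and vehicle), 32 (R6/2 control cargo and wild type) and 16 (wild type and vehicle). Against vehicle the R6/2 difference was -0.584 for Mbp, -0.784 for Sox10 and -2.08 for Pdgfra. Against wild type it was -1.13 for Mbp, -1.28 for Sox10, -1.33 for Olig2 and -2.53 for Pdgfra. Wild type exceeded vehicle by 0.547 for Mbp.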

How the results depend on the processing

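Of 348 recomputed counts of members called, 327 stayed within 1.5 times the reported count. A reported 0 that stayed at 0 was included among these, so the total does not measure how steady the calls were. The cause of the other changes was not tested. With a fold of 1.5 the IP against input counts were 10 (MPTP), 26 (SAPAP3) and 15 (R6/2), a change that follows from the lower bar. Upper-quartile scaling gave 1 (MPTP) and 10 (SAPAP3), log2(FPKM + 1) gave 1, 6 and 5, and log2(FPKM + 0.1) gave 1 (MPTP) and 6 (SAPAP3). DESeq2 called 4 members in MPTP IP and 1 in its interaction. Leaving out a replicate gave 0 to 2 in MPTP IP, 7 to 24 for the hM4Di interaction and 4 to 19 for wild type against vehicle.

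With the replicate number as a block, hM4Di IP had 23 members called and the other comparisons of conditions 0, though same-numbered libraries of different conditions share only a number. With the animal as replicate block the IP against input counts were 2, 16 and 8, the hM4Di interaction 29, and control comparisons 29, 33 and 22. Shares of all genes under either block are not given here.

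Some small IP against input values changed sign. In the MPTP experiment Mog became -0.133, -0.229 and -0.233 (upper-quartile, FPKM + 1, FPKM + 0.1), Mal -0.0236, -0.116 and -0.116, and Opalin -0.0605, -0.168 and -0.173. On the 2 FPKM scales Ugt8a was -0.0124 and -0.0129, Pdgfra -0.0297 and -0.0343, and Vcan -0.00113 on the latter. In SAPAP3 these gave Mbp -0.0406 and -0.0407 and Lhfpl3 -0.0586 and -0.0641. In R6/2 they gave Ugt8a -0.207 and -0.215, Nkx6-2 -0.0321 and -0.0415, Lpar1 -0.0519 and -0.0593, Sox10 -0.103 and -0.11, and Olig2 -0.203 and -0.227. For input of R6/2 control cargo minus wild type they gave Cnp 0.0922 and 0.0926, Lpar1 0.0458 and 0.048, and Cspg4 0.0586 and 0.073.

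With a replicate left out, MPTP IP ranged from -0.303 to 0.0273 for Opalin and -0.121 to 0.133 for Aspa, MPTP input from -0.0502 to 0.153 for Trf and -0.00604 to 0.101 for Gsn. Knockout IP ranged from -0.102 to 0.164 for Fa2h and -0.0675 to 0.329 for Myrf, knockout input from -0.0755 to 0.215 for Myrf and -0.0291 to 0.127 for Olig2. Olig2 in hM4Di input ranged from -0.294 to 0.00778, and the SAPAP3 interaction of Nkx6-2 from -0.235 to 0.0783.

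Over all genes, log2(FPKM + 0.1) moved the IP against input split to 1298 higher and 2439 lower (MPTP), 1369 and 2263 (SAPAP3) and 1182 and 2219 (R6/2). The hM4Di interaction split of 302 and 190 became 294 and 280 (RLE), 288 and 357 (upper-quartile), 404 and 119 (FPKM + 1) and 379 and 118 (FPKM + 0.1). IP over input of R6/2 control cargo minus vehicle went from 832 and 2038 to 1655 and 1292 with upper-quartile scaling, that of R6/2 minus wild type from 689 and 1081 to 952 and 878, and that of wild type minus vehicle from 551 and 1562 to 1006 and 1132. FPKM and upper-quartile scales moved the all-gene median of IP against input by -0.139 to -0.249.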
